A study of Bos taurus with 6 samples.

Results

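bta-miR-2885, bta-miR-2887, bta-miR-2888, bta-miR-2892 and bta-miR-2904 are cattle miRNA entries with neighbouring miRBase numbers, and they make up 5 of the 1030 mature miRNAs listed for each liver small RNA library. They were chosen by name, with earlier results of these libraries known, including the difference between the diets, so their levels and fold changes are given here as a description, with no p-values, and nothing is read from how many of them were called. For each library, the largest count over the precursor rows of a miRNA was taken. The libraries came from 3 grass-fed Wye Angus steers, 21 months old, and 3 grain-fed Wye Angus steers, 14 months old, with 1 liver library per animal. The grass-fed diet was mainly alfalfa, hay or pasture, and the grain-fed diet was mainly corn silage, shelled corn, soybean and minerals. All 6 animals came from 1 closed herd and were sampled at market weight. Diet and age cannot be told apart in this design.

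A miRNA is a short RNA that guides the Argonaute proteins to mRNAs through its seed, the bases near its 5′ end, and lowers the output of those mRNAs. It is cut by Drosha and Dicer from a hairpin precursor. Fragments of ribosomal RNA (rRNA), transfer RNA or small nucleolar RNA have a similar length and enter the same libraries, and some entries of miRBase have been questioned as such fragments. The members are described as GC-rich, and some entries of their number range are suspected rRNA fragments. Their sequences were not analysed here, so neither their GC content nor a match to rRNA was checked. Mammalian rRNA genes lie in repeated units that are often collapsed or misplaced in genome assemblies.

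The summed miRNA counts lay between 3824592 and 6133960 per grass-fed library and between 464875 and 892929 per grain-fed library. Depth, taken here as these summed counts, thus separated the animals in the same way as diet. The study's clean reads, known as a total for each diet group, differed far less between the diets. Levels are given in CPM, counts divided by the library size in units of 1e6, after scaling by TMM, a method that centers the libraries on the bulk of the miRNAs. With 3 counts as the limit, a miRNA without a count may still be present at up to 0.632 to 0.787 CPM in a grass-fed library and at up to 2.92 to 5.32 CPM in a grain-fed library. These limits and all intervals cover counting error only. The hepatocyte miRNA bta-miR-122 lay between 123000 and 458000 CPM in the 6 libraries. In the liver as a whole, fewer cells of a type and less RNA per cell cannot be told apart.

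Of the 5 members, 3 were detected and passed the filter of a count above 2 in at least 2 libraries, namely bta-miR-2885, bta-miR-2887 and bta-miR-2904. All 3 were lower in the grass-fed group in TMM-scaled CPM, and in each case the highest grass-fed library was below the lowest grain-fed library, as for 13.2% of all 456 tested miRNAs (32.9% were separate in either direction). The gap ran from 2.12-fold for bta-miR-2904 to 40.9-fold for bta-miR-2887, as ratios of group means, and had no upper end for bta-miR-2885, which had no count in the grass-fed group. bta-miR-2885 passed the filter through the grain-fed libraries alone, so its separation follows largely from the filter. bta-miR-2888 and bta-miR-2892 had a count of 0 in all 6 libraries.

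bta-miR-2887 was higher in every grain-fed library than in any grass-fed library. Its raw counts were 21, 34 and 23 in grass-fed replicates 1, 2 and 3. In grain-fed replicates 1, 2 and 3 they were 108, 134 and 260, although these libraries held fewer miRNA counts in all. Each grain-fed library thus held more raw counts than each grass-fed library. After scaling, the level was 4.42, 8.01 and 6.04 CPM in the grass-fed and 105, 190 and 461 CPM in the grain-fed replicates. The group means were 6.16 ± 1.80 CPM (SD, n = 3) and 252 ± 186 CPM (SD, n = 3). The log2 fold change of grass-fed against grain-fed was -5.32 (standard error 0.532) in the edgeR fit over all miRNAs. It ranked 6 among 456 tested miRNAs from the lowest log2 fold change upwards. In the libraries themselves, bta-miR-2887 ranked 297, 263 and 277 by count in the grass-fed replicates and 127, 107 and 77 in the grain-fed replicates. The grain-fed animals differed among themselves as well. Grain-fed replicate 3, the library with the fewest miRNA counts, was 4.38-fold above grain-fed replicate 1. Their counting intervals of 407 to 521 and 86.3 to 127 CPM (95%, exact Poisson) did not overlap. The coefficient of variation in the grain-fed group was 73.8%, beside a median of 20.5% over 259 miRNAs with a mean of at least 10 CPM in that group. Without grain-fed replicate 3 the log2 fold change was -4.60.

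bta-miR-2904 was present in every library and varied less within the groups than bta-miR-2887, with coefficients of variation of 18.5% in the grass-fed and 37.2% in the grain-fed group. Its raw counts were 249, 264 and 163 in the grass-fed and 77, 72 and 88 in the grain-fed replicates 1, 2 and 3. By raw count it was therefore higher in every grass-fed library, and these libraries also held more miRNA counts in all. After scaling the order turned, with 52.4, 62.2 and 42.8 CPM in the grass-fed and 75.0, 102 and 156 CPM in the grain-fed replicates. The highest grass-fed and the lowest grain-fed library were close, with counting intervals of 54.9 to 70.2 and 59.2 to 93.7 CPM (95%, exact Poisson) that overlapped. The group means were 52.5 ± 9.72 CPM (SD, n = 3) and 111 ± 41.3 CPM (SD, n = 3), and the log2 fold change was -1.04 (standard error 0.297). Here too grain-fed replicate 3 was the highest library. Without it the log2 fold change was -0.78.

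bta-miR-2885 was rare. It had no count in any grass-fed library, and 6, 11 and 3 counts in grain-fed replicates 1, 2 and 3. The grain-fed levels were 5.84, 15.6 and 5.32 CPM, with overlapping counting intervals of 2.14 to 12.7, 7.78 to 27.9 and 1.10 to 15.6 CPM (95%, exact Poisson). These animals could not be ordered at this depth. Under TMM scaling, 20 grain-fed counts over the group against 0 grass-fed counts put it about 37.2-fold lower or more in the grass-fed group. This takes 3 counts over the grass-fed group as the limit and leaves out the counting error of the 20 grain-fed counts. At the level of the grain-fed group, 111 counts would be read in the 3 grass-fed libraries under TMM scaling, or 23.7 counts if the level is taken per clean read. Its fitted log2 fold change of -7.47 rests on the prior count of the fit and is no bound.

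**Figure D1:**
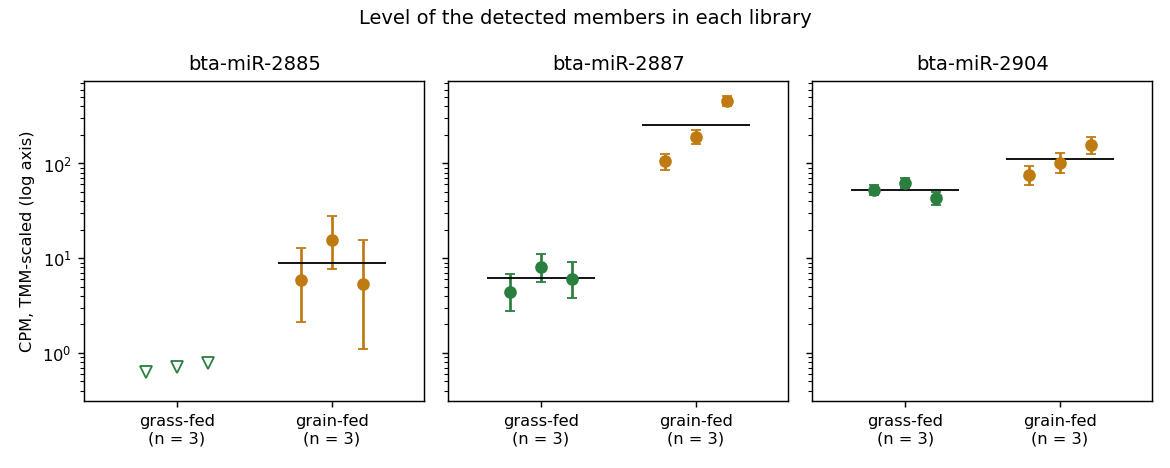
TMM-scaled CPM (log axis) of bta-miR-2885, bta-miR-2887 and bta-miR-2904 in each library, with replicates 1, 2 and 3 from left to right in each diet group. Points carry 95% exact Poisson intervals, black lines are group means (n = 3), and open triangles mark libraries with no count at the level that 3 counts would give. All 3 miRNAs sit higher in the grain-fed group, with the widest gap between measured levels at bta-miR-2887 and the narrowest at bta-miR-2904.

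For bta-miR-2888 and bta-miR-2892, the 6 libraries together allowed a level of up to 0.199 CPM, the 3 grass-fed libraries up to 0.234 CPM and the 3 grain-fed libraries up to 1.31 CPM. A grain-fed level like that of bta-miR-2885, 8.71 CPM over the group, would have been seen. Of the 23 listed entries from bta-miR-2881 to bta-miR-2904, 18 had a count of 0 in every library, or 78.3%. Over all listed mature miRNAs this share was 33.1%. Outside the members, bta-miR-2889 had 1 count in grain-fed replicate 3, and bta-miR-2903 had 1 count each in grass-fed replicates 2 and 3. The other 16 entries outside the members had no count.

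Among all 456 tested miRNAs, 19.1% were called at a false discovery rate (FDR) of 0.1 (edgeR, quasi-likelihood, Benjamini-Hochberg), and 9.65% were called as lower in the grass-fed group. All 3 tested members lay on that side, and nothing is read from this count because the diet difference was known when they were listed. Of the 87 miRNAs called in all, 44 were lower in the grass-fed group, a split that became 65 of 74 with libraries scaled by total count alone and 42 of 124 with upper-quartile scaling. The scaling moved the median over all tested miRNAs, on the log2 scale, from 0.13 with TMM to -0.29 with total counts and 0.31 with upper-quartile scaling. Relative to that median, bta-miR-2904 stood at -1.18, -1.19 and -1.18 and bta-miR-2887 at -5.45, -5.49 and -5.43 on the log2 scale in the same order. A change of scaling shifts all log2 fold changes by nearly the same amount, so these distances could hardly change and are no check of the difference.

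**Figure D2:**
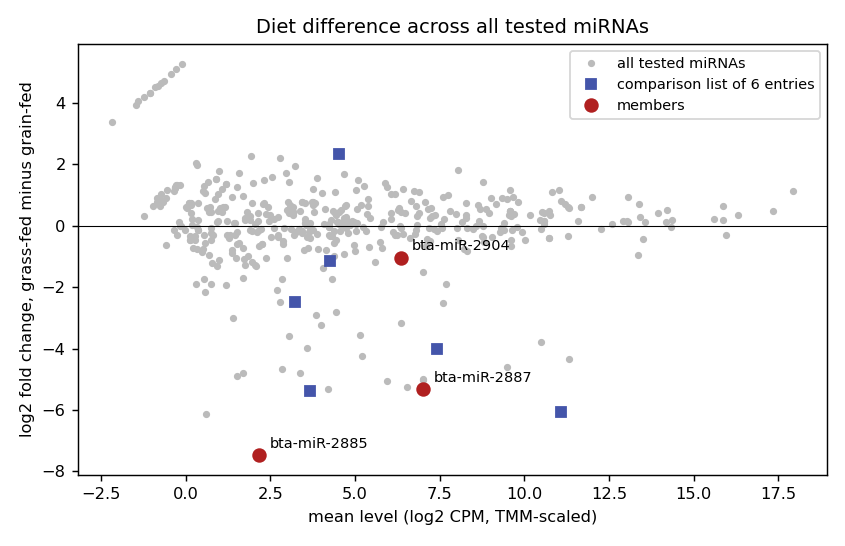
Log2 fold change of grass-fed against grain-fed (vertical axis) by mean level in log2 CPM (horizontal axis) for 456 tested miRNAs (grey), the 3 tested members (red) and a comparison list of 6 entries (blue). bta-miR-2887 and bta-miR-2885 lie at -5.32 and -7.47, far below the bulk of the miRNAs, and bta-miR-2904 lies at -1.04 near its lower edge. Grey points at the upper left are miRNAs with no grain-fed count, whose fitted values rest on the prior count.

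In raw counts, 2 of the 3 members ran against the summed miRNA counts of the libraries. Of the 456 tested miRNAs, 83.8% had more raw counts in each grass-fed library than in each grain-fed library, and bta-miR-2904 was one of them. Only 12 miRNAs, or 2.63%, had more raw counts in each grain-fed library, and bta-miR-2887 and bta-miR-2885 were among these 12. For bta-miR-2885 this place follows largely from the count filter, which it passed through grain-fed counts alone. The study's text gives clean reads as a total for each diet group, which allows a single ratio for each miRNA and no test. These totals differed far less between the diets than the summed miRNA counts. Per clean read, the median of all tested miRNAs was 2.34 higher on the log2 scale in the grass-fed group, and 6.80% of them were lower. On this scale bta-miR-2887 was still lower in the grass-fed group, with a log2 ratio of -2.93 or a 7.63-fold gap. bta-miR-2885 was about 7.91-fold lower or more, with the grass-fed group at its limit of 3 counts and no counting error on the grain-fed total. bta-miR-2904 changed sides and was 2.40-fold higher in the grass-fed group, with a log2 ratio of 1.27. With the summed miRNA counts of each group as the denominator, the log2 ratios were -5.60 for bta-miR-2887 and -1.40 for bta-miR-2904. The direction given for bta-miR-2904 thus holds within the miRNA counts and not per clean read.

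**Figure D3:**
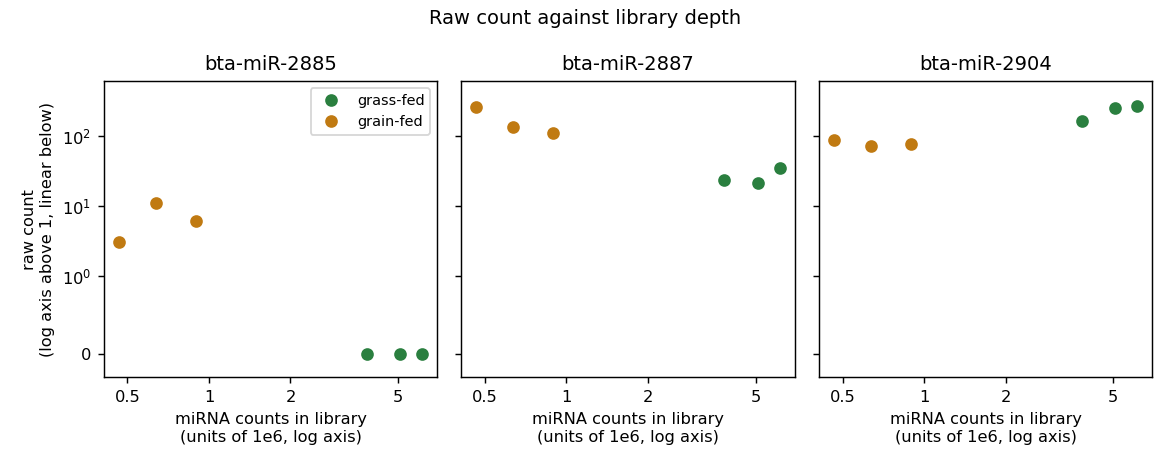
Raw counts of bta-miR-2885, bta-miR-2887 and bta-miR-2904 (vertical axis, logarithmic above 1 and linear below) against the summed miRNA counts of the library in units of 1e6 (log axis), with 1 point per library. The grain-fed libraries lie to the left at fewer miRNA counts, yet hold more counts of bta-miR-2887 and bta-miR-2885 than any grass-fed library. bta-miR-2904 has more counts in the grass-fed libraries.

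**Figure D4:**
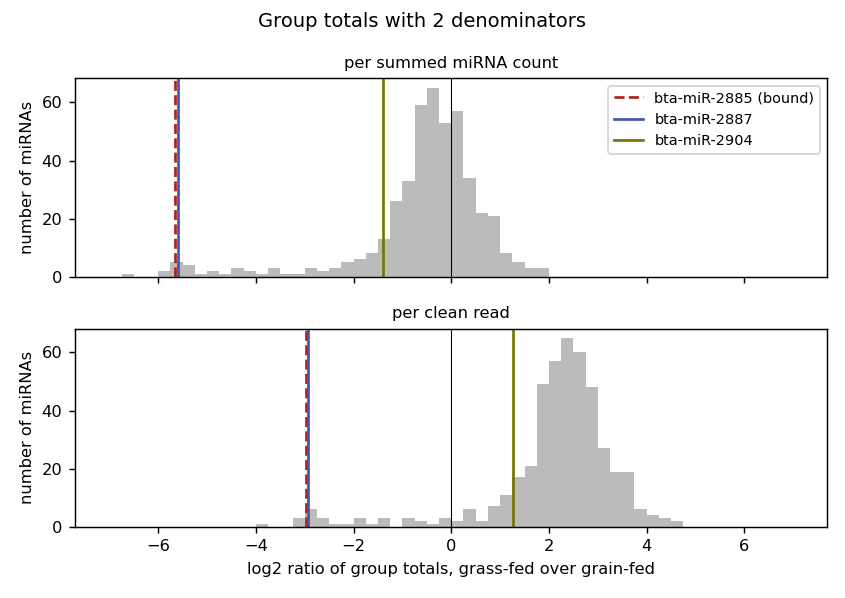
Number of tested miRNAs (vertical axis) by log2 ratio of group totals, grass-fed over grain-fed, with totals taken per summed miRNA count (top) or per clean read (bottom), and miRNAs with no count in a group placed at 3 counts. Vertical lines mark the members. bta-miR-2887 lies at -5.60 and then at -2.93, left of 0 in both panels, as does the bound of bta-miR-2885, and bta-miR-2904 moves from -1.40 to 1.27.

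The balance between members inside a library needs no scaling. bta-miR-2887 made up 7.78%, 11.4% and 12.4% of the summed counts of bta-miR-2887 and bta-miR-2904 in grass-fed replicates 1, 2 and 3. In the grain-fed replicates the shares were 58.4%, 65.0% and 74.7%. The exact binomial intervals (95%) reached 18.0% at most in the grass-fed group and began at 50.9% in the grain-fed group. bta-miR-2904 was thus the more abundant of this pair in every grass-fed library and the less abundant in every grain-fed library. The ratio of bta-miR-2887 to bta-miR-2904 counts was 0.118 ± 0.0299 (SD, n = 3) in the grass-fed and 2.07 ± 0.797 (SD, n = 3) in the grain-fed group. The pair therefore did not shift by a common factor between the diets. For bta-miR-2885 and bta-miR-2887 no such shift could be seen. bta-miR-2885 made up 3.83% of 522 summed counts of this pair in the grain-fed group and 0 of 78 in the grass-fed group, which allows up to 3.85%. At the grain-fed ratio, 3.11 counts of bta-miR-2885 would be read in the 3 grass-fed libraries. Within the grain-fed group the share was 5.26%, 7.59% and 1.14% in replicates 1, 2 and 3. Grain-fed replicate 3, which was highest for bta-miR-2887, was the lowest of them, and its interval of 0.236% to 3.30% did not reach that of replicate 2, which began at 3.85%.

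**Figure D5:**
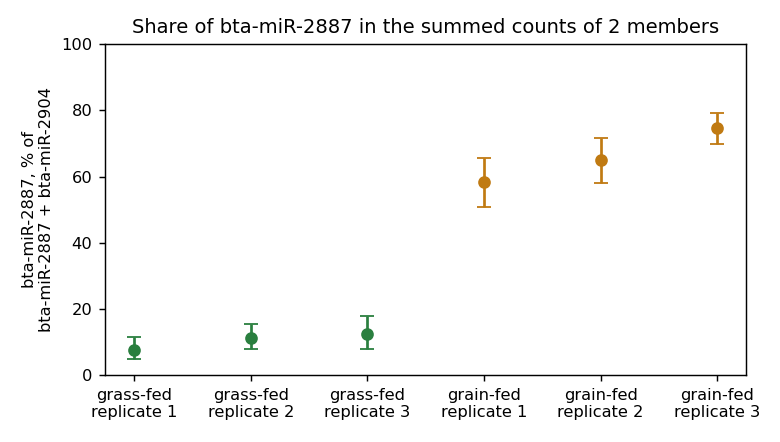
Share of bta-miR-2887 in the summed counts of bta-miR-2887 and bta-miR-2904 (percent, vertical axis) for each library, with 95% exact binomial intervals. The 3 grass-fed libraries lie between 7.78% and 12.4% and the 3 grain-fed libraries between 58.4% and 74.7%.

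The detected members differ in how many precursors they are listed under. bta-miR-2885 has 1 precursor, bta-miR-2887 has 2 and bta-miR-2904 has 3. The count of a member was the same under each of its precursors in every library, so reads cannot be given to one locus. Such identical counts were found for 37 of the 106 listed miRNAs with more than 1 precursor. RefSeq's annotation of ARS-UCD2.0, a later assembly than the ARS-UCD1.2 used by the authors, was searched by precursor name for gene names and gene order. It matched 1032 of 1064 precursors of the files, and 6 of 9 precursors of the members. The precursors of bta-miR-2904 were not matched. MIR2887-2, a precursor gene of bta-miR-2887, overlaps the pseudogene LOC112444681, and the next 2 genes on one side are LOC112444653, annotated as rRNA, and RN18S1, the gene of the small-subunit rRNA. Of the 1032 miRNA genes in that annotation, this was the only one that overlapped an rRNA gene or had one among the 2 nearest genes on either side. The other precursor gene, MIR2887-1, overlaps no gene and has SHOX, a homeobox gene, and the protein-coding LOC112442278 as its nearest genes on one side. MIR2885 overlaps SYT7, which encodes a synaptotagmin that senses calcium in vesicle fusion. Of the undetected members, MIR2888-2 overlaps GRIP2, which encodes a scaffold protein of glutamate receptors, and MIR2888-1 and MIR2892 overlap no gene. From position alone the origin of the reads was not tested.

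Other miRNAs were also higher in the grain-fed group, with gaps of other sizes, which a Pearson correlation does not measure. Pearson correlations of log2 CPM over the 6 libraries were taken with the 258 miRNAs outside the range from bta-miR-2881 to bta-miR-2904 that had a mean of at least 10 CPM, and they mostly reflect the gap between the diets, which also separates depth. The highest for bta-miR-2887 were those of bta-miR-677 (r = 0.983) and bta-miR-4449 (r = 0.971). bta-miR-677 had 56.6, 48.8 and 65.6 CPM in the grass-fed and 221, 248 and 527 CPM in the grain-fed replicates, with its highest level in grain-fed replicate 3, as for bta-miR-2887, and another order among the grass-fed replicates. Among these 258, bta-miR-2904 was closest to bta-miR-677 (r = 0.909) and to bta-miR-150 (r = 0.907), a lymphocyte miRNA. The correlation of bta-miR-2904 with bta-miR-2887 was higher (r = 0.933). bta-miR-150 had group means of 121 CPM in the grass-fed and 173 CPM in the grain-fed group. bta-miR-2885 was closest to bta-miR-652 (r = 0.982) and bta-miR-12034 (r = 0.971). bta-miR-652 had group means of 67.0 CPM in the grass-fed and 190 CPM in the grain-fed group. bta-miR-12034 had 31.2, 62.3 and 14.2 CPM in grain-fed replicates 1, 2 and 3, above its grass-fed levels of 0 to 1.57 CPM.

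A comparison list held 6 other entries, bta-miR-1246, bta-miR-1248, bta-miR-1260b, bta-miR-1291, bta-miR-3533 and bta-miR-4449, some of which have been discussed as fragments of a small nuclear RNA, small nucleolar RNAs or a transfer RNA. The list was chosen with results of these libraries known. In the edgeR test 5 of the 6 were lower and 1 was higher in the grass-fed group at FDR 0.1. Without its grain-fed counts bta-miR-4449 would not have passed the count filter, so its call follows partly from the filter. Among all 456 tested miRNAs, 9.65% were called lower and 19.1% in either direction. The median log2 fold change of the 6 was -3.25, beside 0.13 over all tested miRNAs. bta-miR-1246, which in other species matches a small nuclear RNA, had a log2 fold change of -6.05 (standard error 0.492). bta-miR-1260b, which resembles a transfer RNA fragment, went the other way with 2.35 (standard error 0.375). The 6 entries thus did not all move in 1 direction. Whether the members share an origin with such entries was not tested.

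Markers of other cell types were read in the same libraries. Of the 11 tested erythroid, leukocyte and skeletal muscle miRNAs, 0 passed FDR 0.1 in edgeR, beside 19.1% of all tested miRNAs. An unadjusted edgeR p below 0.05 was found for 4 of the 11, beside 115 of all 456. Leukocyte miRNAs made up 3 of these 4, with log2 fold changes of -0.98 (bta-miR-142-3p), -0.62 (bta-miR-223) and -0.51 (bta-miR-150). The skeletal muscle bta-miR-1 went the other way with 0.74, as did the leukocyte bta-miR-155 with 0.40, outside these 4. In DESeq2, 1 of the 11, bta-miR-150, passed FDR 0.1. In the pancreas list, 3 of 4 miRNAs were called lower in the grass-fed group at FDR 0.1 (edgeR), beside 9.65% of all tested miRNAs. Of these, bta-miR-216a and bta-miR-216b passed the count filter through grain-fed libraries alone, so their calls follow largely from the filter. The summed level of the pancreas list ranged from 32.3 to 36.0 CPM in the grass-fed and from 14.2 to 136 CPM in the grain-fed libraries. In grain-fed replicate 3, where bta-miR-2887 and bta-miR-2904 were highest, bta-miR-216a, bta-miR-216b and bta-miR-217 had no count. bta-miR-217 had 16.6 and 43.9 CPM in grain-fed replicates 1 and 2, so it was not highest in the same grain-fed library as bta-miR-2887 and bta-miR-2904. bta-miR-2885 was highest in grain-fed replicate 2, as bta-miR-217 was, at 15.6 CPM with a counting interval that overlapped those of the other grain-fed libraries. A shared source was not tested. Of the 3 hepatocyte miRNAs, 2 were higher in the grass-fed group at FDR 0.1 (edgeR) and 0 were lower. Among all 456 tested miRNAs, 43 were called higher and 44 lower.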

How the data were processed

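Liver small RNA was sequenced from 3 grass-fed and 3 grain-fed steers. The authors trimmed and length-selected the reads, aligned them to the ARS-UCD1.2 assembly and quantified the known miRNAs of miRBase with miRDeep2, version not given in the sources used here. Files deposited by the authors hold raw counts, 1 row per mature miRNA and precursor, 1207 rows per library. The deposited CPM divides them by the total over all rows and was not used. Each mature miRNA was given its largest count over precursors. The members and lists were chosen with earlier results of these data known. Counts above 2 in at least 2 libraries were kept, scaled by TMM and fitted by quasi-likelihood in edgeR version 4.0.16 (newer form) in R version 4.3.3, with Benjamini-Hochberg adjustment and FDR 0.1. Standard errors were taken as the absolute log2 fold change over the root of F. Intervals are exact at 95%, with scipy version 1.17.1. Named miRNAs are the members, the entries from bta-miR-2881 to bta-miR-2904, the 2 miRNAs most correlated with each tested member, the tissue lists and the comparison list. In simulated counts for 456 miRNAs, 200 were changed by 2 on the log2 scale, up or down. There edgeR found 82.3% of the changed miRNAs, and 4.91% of its calls were unchanged miRNAs. The simulated counts had the spread that is usual for a miRNA of that level. Both rates need not hold for miRNAs that vary more, such as bta-miR-2887. Replicates differed by more than sampling noise. Alternatives were DESeq2 version 1.42.0, other scalings and filters, the sum over precursors, a replicate block, clean reads as denominator and each library left out. The smallest two-sided exact permutation p for 3 against 3 is 0.1.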

Additional observations from a re-analysis of the deposited data

How the results depend on the processing

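The log2 fold changes of bta-miR-2885, bta-miR-2887 and bta-miR-2904 were recomputed in 38 alternatives, all within the miRNA counts. Clean reads as the denominator are not among the 38 and are given below. The alternatives reuse the same counts of members chosen with the diet difference known, so they are no independent check. All 38 kept the direction, and bta-miR-2885 had no value with at least 10 counts in 3 libraries. In 37 of them the miRNA also stayed on the same side of FDR 0.1. The exception was bta-miR-2904 without grain-fed replicate 3, which was no longer called. With each library left out, the values ran from -8.00 to -7.11 for bta-miR-2885, from -5.78 to -4.60 for bta-miR-2887 and from -1.35 to -0.78 for bta-miR-2904. The values nearest 0 for bta-miR-2887 and bta-miR-2904 were those without grain-fed replicate 3. Leaving out each library gave 49 to 86 called miRNAs in place of 87, with 49 without grain-fed replicate 2. Per clean read, the log2 ratios of group totals were -2.93 for bta-miR-2887, -2.98 as a bound for bta-miR-2885 and 1.27, reversed, for bta-miR-2904, since that denominator differs less between the diets than the miRNA counts do. The replicate numbers do not pair the animals: deviations of same-numbered libraries correlated at -0.0536, -0.201 and -0.0111. A replicate block gave -7.49, -5.14 and -1.03 for bta-miR-2885, bta-miR-2887 and bta-miR-2904 and 82 called miRNAs. No alternative was tried for bta-miR-2888 and bta-miR-2892, which had no count. Depth limits a single grain-fed library to levels above 2.92 to 5.32 CPM.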
